A study of Mus musculus with 78 samples.

Results

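Retinal cells labelled by an Rgs5-EGFP transgene were compared with cells of 2 other amacrine lines of the mouse retina. The comparison used 9 of the 78 arrays of the series: 3 of the line Tg(Rgs5-EGFP)24Gsat, 3 of Tg(Arc-EGFP)194Gsat/Mmcd (the set titled Arc 3rd) and 3 of Tg(Igfbp2-EGFP)17Gsat. The arrays were chosen by title alone, all 9 carry the batch label 3, and all probe sets with 1 gene symbol entered. The labels call all 3 groups amacrine cells of adult retina and give their background as FVB/N-Swiss Webster hybrid mixed with C57BL/6J, and they number the arrays as biological replicates. Per the labels' protocols, each sample was 200 fluorescent cells sorted after 15 min of dissociation, and the hybrid mice, known to carry a recessive mutation that makes photoreceptors degenerate, were crossed back to C57BL/6J and used in the F2 generation. The transgene defines the cells, so each group holds whatever cells of 1 transgenic line expressed EGFP and passed the sort. Nothing in the labels says whether the replicates came from separate animals, so p-values here measure the spread between arrays.

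Amacrine cells are inhibitory interneurons of the retina that release GABA or glycine, and many types also carry a neuropeptide. Rgs5, a regulator of G protein signalling that shortens signalling through Gq and Gi proteins, is best known outside neurons as a gene of pericytes and vascular smooth muscle. These cells, together called mural cells, wrap retinal capillaries and arterioles, and contract through smooth muscle actin (Acta2) and smooth muscle myosin. Penk encodes proenkephalin, the precursor of the enkephalin opioid peptides, and is made by a subset of amacrine cells. Levels are given in units of the deposited intensity, which sets no gene's level against another's, and differences as log2 units, in which 1 is a 2-fold difference. In bulk samples such as these, fewer cells of a type and less RNA per cell cannot be told apart.

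Most general amacrine genes were above the median of all values, 9.01, in all 3 lines. Of the 18 measured, 14 had an arithmetic mean above it in the Rgs5 line, 13 in Arc 3rd and 14 in Igfbp2. Others of the list were dim, such as Slc6a9 and Slc6a5, with means of 9.25 and 5.69 in the Rgs5 line. Pax6, a transcription factor of amacrine cells, lay between 233 and 250.1 on the Rgs5-line arrays, and Slc32a1, the vesicular transporter of GABA and glycine, between 456 and 520. A gene was called where limma's Benjamini-Hochberg adjusted p was below 0.05 and the groups were 1 log2 unit or more apart. Of the 15 amacrine genes tested, 0 were called in either direction, which is near the 1.39% of all genes called, and 7 had an unadjusted p below 0.05. All 3 Rgs5-line arrays lay below the 6 others for 5 of the 15 and above them for 1. Over all genes tested these shares were 6.13% and 4.96%. The gene for each line's driver checked the labels in part. The Rgs5 transcript was at 199, 171 and 179 in the Rgs5 line against 10.9 to 18.9 in Arc 3rd and 6.14 to 7.36 in Igfbp2. The Igfbp2 transcript had a mean of 1325 in its own line, 226 in Arc 3rd and 146 in the Rgs5 line, while the Arc transcript was at 17 to 19.7 in Arc 3rd and at 8.51 to 10 in the Rgs5 line, close to the median of all values, 9.01. Correlations of log2 values between arrays ran from 0.918 to 0.940 within the Rgs5 line and from 0.890 to 0.915 between it and the others. Values at or below 3.99 have no order on an array of the Drd4 line, the highest such limit in the series, and are read here as a floor. On the 9 arrays compared this limit was lower, between 0.0671 and 0.549.

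Across 11068 genes tested, 154 (1.39%) passed the test between the Rgs5 line and the mean of the other 2. Of these, 68 (0.614%) were higher in the Rgs5 line and 86 (0.777%) lower. With values raised to the floor, the largest higher differences were in Vtn, H2bc4, Apela and Gm10785, whose highest levels in the series are in photoreceptor lines, followed by Higd1b, Mgp, Rgs5 and Acta2. The largest lower differences were in the neuropeptide genes Npy, Vip and Cartpt and the somatostatin receptor gene Sstr2. Against Arc 3rd alone 111 genes passed (1%), with 44 higher (0.398%) and 67 lower (0.605%). Against Igfbp2 alone 151 passed (1.36%), with 68 higher (0.614%) and 83 lower (0.75%). Those comparisons share the Rgs5 arrays. Arc 3rd and Igfbp2 differed from each other in 34 genes (0.307%), 14 higher in Arc 3rd (0.126%) and 20 lower (0.181%). Of the genes called in the main comparison, 38 higher and 27 lower passed in both single comparisons too. On the deposited values, all 3 Rgs5-line arrays lay above all 6 others for 63 of the 68 and below them for 65 of the 86. Over all genes tested these shares were 4.96% above and 6.13% below.

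**Figure D1:**
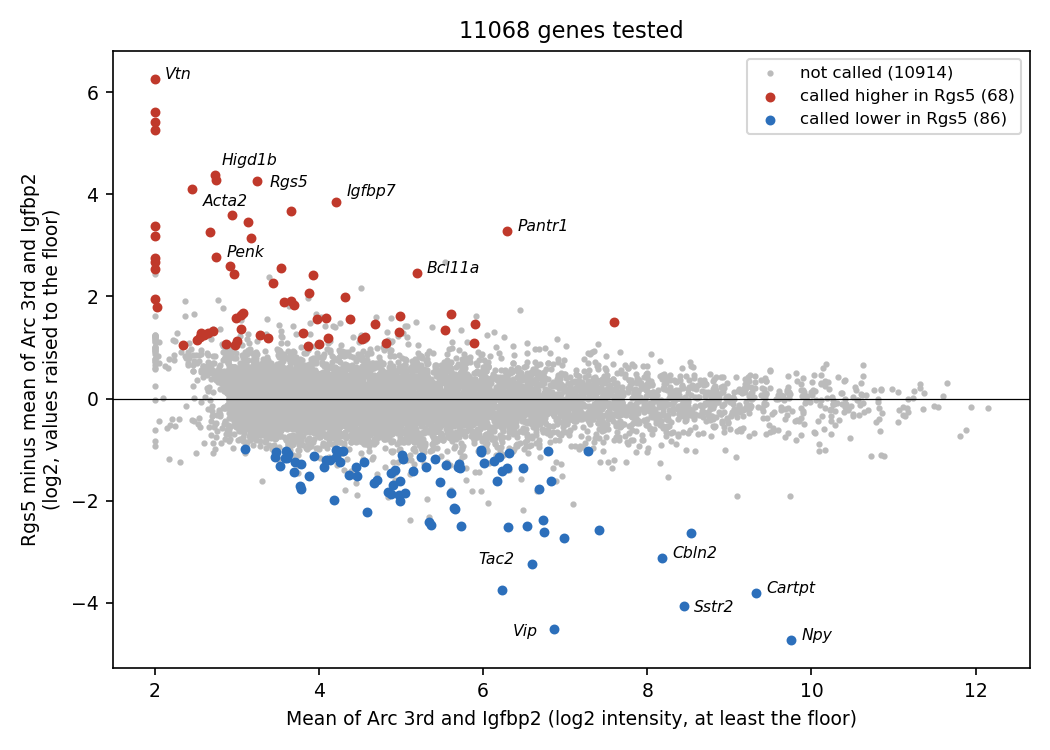
Difference between the Rgs5 line and the mean of Arc 3rd and Igfbp2 (y axis, log2 units) against that mean (x axis, log2 intensity), with values raised to the floor; each point is 1 of 11068 genes. The 68 genes called higher are red, the 86 called lower are blue, and Npy, Cartpt and Sstr2 lie far below 0 at a high level in the other lines.

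Among mural genes, 7 of the 19 tested were called higher in the Rgs5 line and 1 lower, against 0.614% and 0.777% of all genes. The list has 29 genes in the table, and the median difference over those tested was 0.58, against -0.02 over all genes. The 7 were Rgs5, Acta2, Higd1b, Myl9, Kcnj8, Tagln and Vtn. Of these, Acta2, Higd1b, Myl9, Tagln and Vtn entered the test only through their level in the Rgs5 line, and Rgs5 is the line's driver. The count and the median of the tested genes thus lean towards higher values. Summed over the list, the level was 1084 to 1195 on the Rgs5-line arrays, 339 to 358 on those of Arc 3rd and 281 to 326 on those of Igfbp2. Vtn, at 294 to 314, and the driver Rgs5, at 171 to 199, made up a large part of the Rgs5-line sum. The highest mean of Vtn in the series was 1453, in the photoreceptor set d4.

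The line's own driver gene, Rgs5, differed by 4.27 ± 0.37 (SE, n = 3 against 6 arrays, adjusted p = 3.9e-13), and by 3.79 against Arc 3rd and 4.75 against Igfbp2. Higd1b, a hypoxia-inducible domain protein used as a pericyte marker, was at 106, 181 and 138 in the Rgs5 line and at 5.37 to 7.52 on the 6 other arrays. Its difference was 4.37 ± 0.28 (SE, adjusted p = 7.8e-18), and the groups did not overlap. Kcnj8, the pore subunit of the vascular ATP-sensitive potassium channel, was at 51.5, 34.8 and 77.8 against 8.60 to 13.9, a difference of 2.25 ± 0.33 (SE, adjusted p = 2.9e-06).

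Contractile genes moved in both directions. Acta2 was at 87.7, 65.2 and 145 in the Rgs5 line and at 4.24 to 6.33 on the others, a difference of 4.10 ± 0.44 (SE, adjusted p = 4e-10). Myl9, the regulatory light chain of smooth muscle myosin, was at 73.7, 35.6 and 86.2 against 5.13 to 7.52 (3.26 ± 0.31, adjusted p = 7.6e-12). Tagln, the actin-binding protein transgelin, was at 23.9, 12 and 13.3. The other 6 arrays had Tagln at 2.93 to 5.14, some of them under the floor, and its difference was 1.94, or 1.80 with values raised to the floor. For all of these the lowest Rgs5-line array was above the highest of the others. Tpm1, a tropomyosin made in many cell types including neurons, was lower, at 36.9, 35.2 and 22.3 against 54.8 to 108 (-1.35, adjusted p = 0.025). Leaving out Rgs5 replicate 1, 2 or 3, Arc 3rd replicate 3 or Igfbp2 replicate 3 ended the call for Tpm1, with adjusted p between 0.058 and 0.28. Tpm2 was 0.93 higher, under the threshold of 1, and without Rgs5 replicate 3 it passed at 1.19. Of the 8 contractile genes tested, 3 were called higher and 1 lower, against 0.614% and 0.777% of all genes. The 3 entered the test only through their level in the Rgs5 line, so the count leans towards higher values. A further 7 genes of the list were measured but too dim to be tested.

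Upstream bases are shown for Rgs5, whose regulatory sequence the transgene uses, and for Myl9. Of the 12 contractile genes with an entry, Myl9 is the 1 that holds an exact match to the CArG box. This is the motif bound by serum response factor in smooth muscle genes. The sequences are the 250 bases before the RefSeq start site on GRCm38.p6, read 5′ to 3′ on the gene's strand, with the motif in capitals. Rgs5 is on the plus strand at chr1:169655251-169655500 and Myl9 on the plus strand at chr2:156775214-156775463.
Rgs5: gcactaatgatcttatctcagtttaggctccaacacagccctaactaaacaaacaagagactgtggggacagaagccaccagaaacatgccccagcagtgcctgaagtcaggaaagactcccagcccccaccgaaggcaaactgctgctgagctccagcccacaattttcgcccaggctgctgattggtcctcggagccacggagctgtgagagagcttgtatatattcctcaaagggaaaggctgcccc
Myl9: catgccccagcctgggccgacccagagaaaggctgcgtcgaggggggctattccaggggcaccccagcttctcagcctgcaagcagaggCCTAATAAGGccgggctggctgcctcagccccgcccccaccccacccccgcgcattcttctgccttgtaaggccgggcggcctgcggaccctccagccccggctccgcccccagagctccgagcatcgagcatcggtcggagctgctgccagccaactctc
The exact motif was searched on both strands, and its first base in Myl9 is at -161 from the start. Of all 32851 promoters, 1.47% hold an exact match in this window. The exact motif was not found in the window of Rgs5, Acta2 or Kcnj8, which says only that these letters are not there. Sequences 1 base away from it were not counted, such as ccctatatgg and ccttgtttgg in the window of Acta2.

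Several other defining mural genes were too dim to be tested or did not pass. Pdgfrb, the platelet-derived growth factor receptor of pericytes, was at 5.53, 6.87 and 5.88 in the Rgs5 line against 5.05 to 6.91, and its mean was below 9.01 in all 26 sets of the series. Cspg4 (NG2, at most 9.58) and Abcc9 (the sulfonylurea receptor that partners Kcnj8, at most 8.75) were also too dim. Myh11, the smooth muscle myosin heavy chain, differed by 0.04, and Notch3 by -0.17, both with overlapping arrays.

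**Figure D2:**
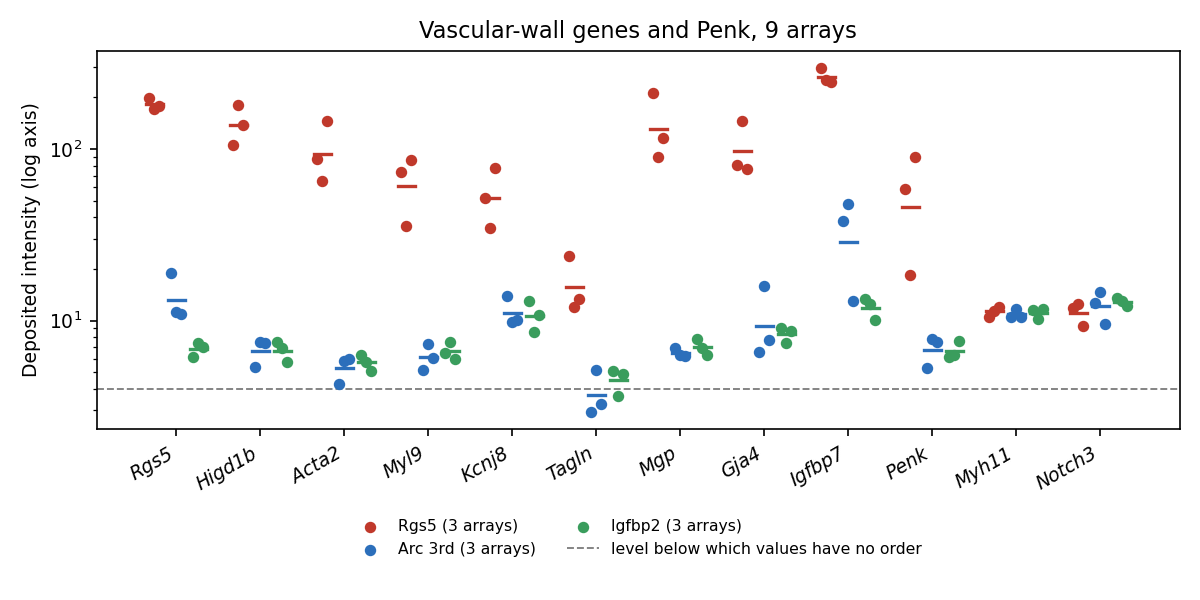
Deposited intensity (log axis) of vascular-wall genes and Penk on each of 9 arrays, with bars at the geometric mean of 3 arrays. Rgs5, Higd1b, Acta2, Myl9 and Kcnj8 are higher on all 3 Rgs5-line arrays than on any other, whereas Myh11 and Notch3 overlap; the dashed line is the floor of 3.99.

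The list of endothelial genes, from the cells that line the vessels, gave no call. Of the 10 tested, 0 passed limma's test, against 1.39% of all genes, and 3 had an unadjusted p below 0.05. The summed level of the 22 measured was 178 to 300.3 in the Rgs5 line, 215 to 237 in Arc 3rd and 210 to 251 in Igfbp2. Outside the list, the endothelin gene Edn1, named after its values were seen, was called higher by limma (1.37, adjusted p = 0.00073). It was at 13.7, 41.3 and 17.2 in the Rgs5 line against 6.78 to 9.16. Cldn5, the tight junction claudin of the blood-retina barrier, was at 20.7, 80.9 and 10.3 in the Rgs5 line against 5.31 to 9.09 (1.93 ± 0.57 SE, adjusted p = 0.069). Without Rgs5 replicate 2 its difference was 1.11 (adjusted p = 0.76), and without Rgs5 replicate 3 it was 2.59 and passed (adjusted p = 0.019). Rgs5 replicate 2 also had the highest Cd34, a surface glycoprotein of endothelium, at 16.8 against 5.04 to 7.70 on the other 8 arrays, and within its line the lowest Acta2, Myl9, Kcnj8 and Penk and the highest Higd1b and Gja4. The definitive endothelial genes Pecam1 (at most 7.85) and Cdh5 (at most 5.92 over the 9 arrays) were too dim to be tested. Of 10 fibroblast and matrix genes and 8 basement membrane genes tested, 0 were called by limma, and 0 and 3 had an unadjusted p below 0.05.

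Over the 26 sets of the series, Rgs5, Acta2 and Higd1b had their highest mean in the Rgs5 line. The Grik4 line, labelled ganglion cells and made with Cre and a Rosa26 reporter, came next for all of them. Rgs5 had a mean of 183 in the Rgs5 line, 92.3 in Grik4, 64.6 in Drd4 and 41.1 in Crh, with ranges of 171 to 199, 55.7 to 148, 32.6 to 138 and 22 to 83.5. The Rgs5 line's range was thus clear of its neighbour's, while the next 3 lines overlapped. Acta2 had a mean of 94 in the Rgs5 line, 43.5 in Grik4 (4.98 to 161) and 26.1 in Drd4, and at most 6.62 in the other 23 sets. Higd1b had 138, 83.7, 31.9 and 18.3 in the Rgs5, Grik4, Drd4 and Crh lines. Myl9 was at 62.2 in Grik4 and 60.9 in the Rgs5 line, and Mgp, matrix Gla protein, at 198 in Grik4 and 130 in the Rgs5 line, with overlapping ranges.

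The 5 genes whose log2 set means followed those of Rgs5 most closely over the 26 sets were Myl9 (Pearson r = 0.957), Higd1b (0.941), Mgp (0.925), Aspn (0.909) and Gja4 (0.893). Without the Rgs5 line, over 25 sets, the values were 0.933, 0.904, 0.898, 0.865 and 0.824. Cldn5, an endothelial gene, had r = 0.802 over the 26 sets and 0.920 over the 25, above 4 of the 5 named. The points are means of 3 arrays normalized together, and most sets lie near the lower end, so 4 lines carry most of each correlation.

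**Figure D3:**
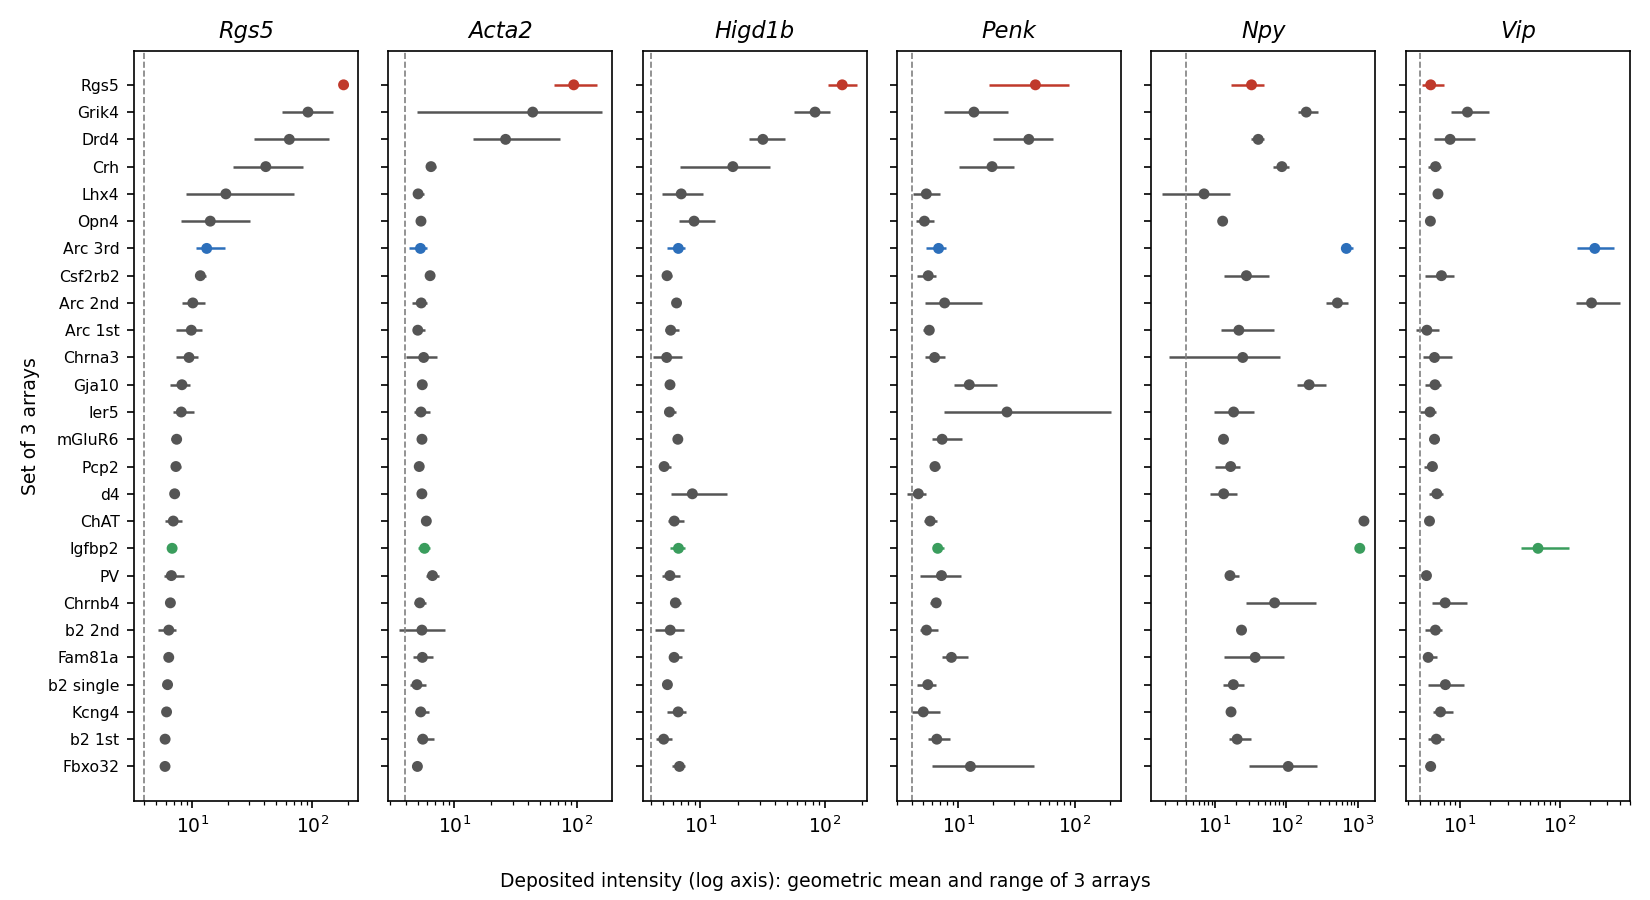
Geometric mean and range of 3 arrays (x axis, deposited intensity, log axis) in each of 26 sets (y axis, ordered by the level of Rgs5) for 6 genes; the Rgs5 line is red, Arc 3rd blue and Igfbp2 green. Rgs5, Acta2 and Higd1b are highest in the Rgs5 line and next in Grik4, while Npy and Vip are high in Arc 3rd and Arc 2nd and low in Arc 1st.

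Mgp, Gja4, Igfbp7 and Aspn, which are named for the size of their difference or their likeness to Rgs5 and form no fixed list, were also called higher. Mgp, which inhibits calcification of vessel walls, was at 213, 89.5 and 115 in the Rgs5 line against 6.20 to 7.85, a difference of 4.28 (adjusted p = 7.6e-13). Gja4, the vascular gap junction protein connexin 37, was at 80.8, 146 and 76.9 against 6.54 to 16 (3.46). Igfbp7, a secreted binding protein of insulin-like growth factors, was at 297, 253 and 246 against 10 to 47.7 (3.84), and its highest mean over all sets was 1269 in the ChAT line. In each of these genes the 3 Rgs5-line arrays lay above the 6 others. Aspn, the matrix proteoglycan asporin, was at 31, 27.4 and 23.6 against 3.26 to 5.92, a difference of 2.67 with values raised to the floor.

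Higher genes outside the vessel lists included Crip1, a small LIM domain protein, at 283, 138 and 105 against 10.3 to 15.5 (3.66), and Tmem114, a claudin-like membrane protein. Tmem114 was at 22, 198 and 183 against 6.15 to 11.5, and its difference of 3.60 rose to 4.64 without Rgs5 replicate 1. A further 4 genes are named after their values were seen. Tafa1, a secreted chemokine-like protein of neurons, was at 74.3, 101 and 66.8 against 5.53 to 12.3 (3.15). Gpr12, an orphan receptor that raises cyclic AMP, was at 77.1, 57.2 and 73.8 against 6.31 to 21.6 (2.56). Bcl11a, a zinc finger repressor that marks neuronal subtypes, was at 208, 193 and 205, against 52.8 to 63.1 in Arc 3rd and 14.1 to 32.9 in Igfbp2 (2.47). All of these separated the Rgs5 line from both other lines. Pantr1, a long noncoding RNA, was at 833, 824 and 642 in the Rgs5 line and 362 to 716 in Arc 3rd, but at 6.08 to 20.6 in Igfbp2, so its call rests on the Igfbp2 line: the difference was 5.89 against Igfbp2 and 0.67 against Arc 3rd (adjusted p = 0.99).

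Several of the largest differences were in genes whose highest levels in the series are in photoreceptor lines. They are Vtn (vitronectin, an adhesive glycoprotein also made by pericytes), Apela (a peptide ligand of the apelin receptor), H2bc4 and H3c15 (replication-type histones with near-identical copies elsewhere, so their values are uncertain), Gm10785, Ebpl and the rod transducin subunit Gngt1. Vtn was at 294, 310 and 314 in the Rgs5 line and below the floor on the 6 other arrays, a difference of at least 6.26 log2 units. In the photoreceptor sets the mean of Vtn was 975 to 1453. Apela was at 230, 145 and 148 against below the floor (at least 5.41), with a mean of 670 in the Chrnb4 photoreceptor set. H2bc4 was at 163, 152 and 292 against below the floor (at least 5.60). These bounds hold if no signal was taken off before deposit. Gm10785 was at 379, 467 and 174 against 0.0623 to 32.9, and Ebpl at 98.4, 68.1 and 10.9 against below the floor (at least 3.39, adjusted p = 0.031). Olfr1112, an olfactory receptor gene named after its values were seen, was at 50.9, 9.86 and 38 against below the floor (at least 2.74, adjusted p = 0.033), and on the deposited values it did not pass without Rgs5 replicate 1 or 3 (adjusted p = 0.076 and 0.057).

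Vtn, Apela, H2bc4, H3c15, Ebpl, Gngt1 and Olfr1112 are the 7 genes called higher whose difference was cut by more than 1.5 times at the floor. All 7 had their highest other set among photoreceptors, against 30.9% of all genes tested. The 7 were picked for values far under the floor in the other lines, and all genes tested were not. The 2 shares are therefore not alike in choice, and nothing is drawn from their difference. The rod list as a whole had a median difference of 0.76 over the 11 genes tested, against -0.02 over all genes, and 3 had an unadjusted p below 0.05. Rod genes could enter the test through the Rgs5 line alone, as Gngt1 did, which leans this median upward. Of the 17 measured, 10 had an arithmetic mean of the 3 arrays above 9.01 in the Rgs5 line, 6 in Arc 3rd and 7 in Igfbp2. Guca1a, a calcium sensor of photoreceptors, was at 0.07, 181 and 224 in the Rgs5 line and 0.06 to 144 on the others (4.45, adjusted p = 0.49). Rcvrn and Pde6g were below the floor on all 9 arrays, Gnat1 was below it on all 3 Rgs5-line arrays, and the arrestin Sag was at 0.13, 0.07 and 64 in the Rgs5 line. The 1 rod gene called was Gngt1, at 45.2, 37.5 and 7.43, and with values raised to the floor it did not pass (2.54, adjusted p = 0.084). The summed level of the 17 rod genes measured was 265 to 705 in the Rgs5 line, 211 to 313 in Arc 3rd and 128 to 474 in Igfbp2, so the groups overlapped. The part of photoreceptor RNA in these calls was not tested. The choice of Arc set bears on some of them: the mean of H2bc4 was 159 in Arc 1st and 27 in Arc 2nd, and that of Gm10785 was 709 and 473. With the mean of the 3 Arc sets as the Arc level the call for Gm10785 ended (4.88, adjusted p = 0.12). The call for H3c15 ended when any 1 array other than Arc 3rd replicate 2 was left out (adjusted p 0.054 to 0.19) and at the floor (3.18, adjusted p = 0.093).

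Penk was the opioid gene that separated the Rgs5 line. It was at 58.6, 18.3 and 89.7 in the Rgs5 line and at 5.32 to 7.82 on the 6 other arrays, a difference of 2.77 ± 0.54 (SE, adjusted p = 0.00063), and without Rgs5 replicate 2 it was 3.43. Its highest mean was in the Rgs5 line, 45.9, next to 40.3 in Drd4, 26.2 in Ier5 and 19.5 in Crh, and the ranges of these lines overlap. Acta2 was at most 6.44 in the Crh set and lower in Ier5, so the lines high in Penk were not all high in Acta2. The precursors of the other opioid peptides, Pdyn, Pnoc and Pomc, differed by 0.51, 0.75 and 0.80 and were not called. Crh, corticotropin-releasing hormone, was called higher at 2.97, 103 and 8.94 against 3.23 to 4.13 (1.95, adjusted p = 0.017). Its level rests on Rgs5 replicate 2: without that array the gene was too dim to be tested, and without Rgs5 replicate 1 the difference was 3.07. The Crh line itself had a mean of 307.

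Of the 20 neuropeptide and related secretory genes tested, 2 were called higher (Penk and Crh) and 6 lower: Npy, Vip, Cartpt, Tac2, Cbln4 and Chga. Over all genes 0.614% were called higher and 0.777% lower. The median difference of the list was -0.01, against -0.02 over all genes. Npy, neuropeptide Y, was at 42.7, 16.8 and 48.8 in the Rgs5 line, 852, 682 and 576 in Arc 3rd and 1108, 1065 and 1039 in Igfbp2, a difference of -4.72 ± 0.70 (SE, adjusted p = 3.6e-06). Vip, vasoactive intestinal peptide, which raises cyclic AMP in its target cells, was at 6.93, 4.55 and 4.19 against 215, 352 and 148 in Arc 3rd and 40.5, 44.3 and 123 in Igfbp2 (-4.51 ± 0.31, adjusted p = 5.4e-17). For both, every Rgs5-line array lay below every other.

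Cartpt, the precursor of the CART peptides, was at 32.6, 60 and 49.6 in the Rgs5 line, 2437, 1193 and 1178 in Arc 3rd and 200 to 338 in Igfbp2 (-3.80, adjusted p = 0.00014). Against Igfbp2 alone it was -2.57 and did not pass (adjusted p = 0.086). Tac2, the precursor of neurokinin B, was at 8.66, 13.2 and 9.53 against 16.7 to 303 (-3.23, adjusted p = 0.00038), and against Arc 3rd alone it was -2.18 and did not pass (adjusted p = 0.15). Chga, the dense-core granule protein chromogranin A, was at 50.9 to 59.3 against 75.8 to 140.3 (-1.03). That call ended without Rgs5 replicate 1 or 3 (adjusted p = 0.064 and 0.073), or without Arc 3rd replicate 2 or 3, when the difference was -0.99. Scg2, another granule protein, was at 494 to 728 in the Rgs5 line and overlapped the others. Tac1, the precursor of substance P, was high in all 3 lines, at 815 to 930 in the Rgs5 line and 1565 to 2178 on the others. Its difference of -1.13 did not pass in the fit over 78 arrays (adjusted p = 0.96) and passed in a fit over the 9 arrays alone (adjusted p = 1.4e-05).

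The contrast in Npy and Vip depends on which set of the Arc line stands for it. Npy had a mean of 694 in Arc 3rd, 520 in Arc 2nd and 21.7 in Arc 1st, which is labelled batch 1 and lies below the 32.7 of the Rgs5 line. Vip had 224, 208 and 4.67 in the same sets. Cartpt did not show this, with 1507, 1336 and 1465. Of the 86 genes called lower, 12 had a lower mean in Arc 1st than in the Rgs5 line. With the mean of the 3 Arc sets as the Arc level both calls held, at -3.82 for Npy and -3.57 for Vip.

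**Figure D4:**
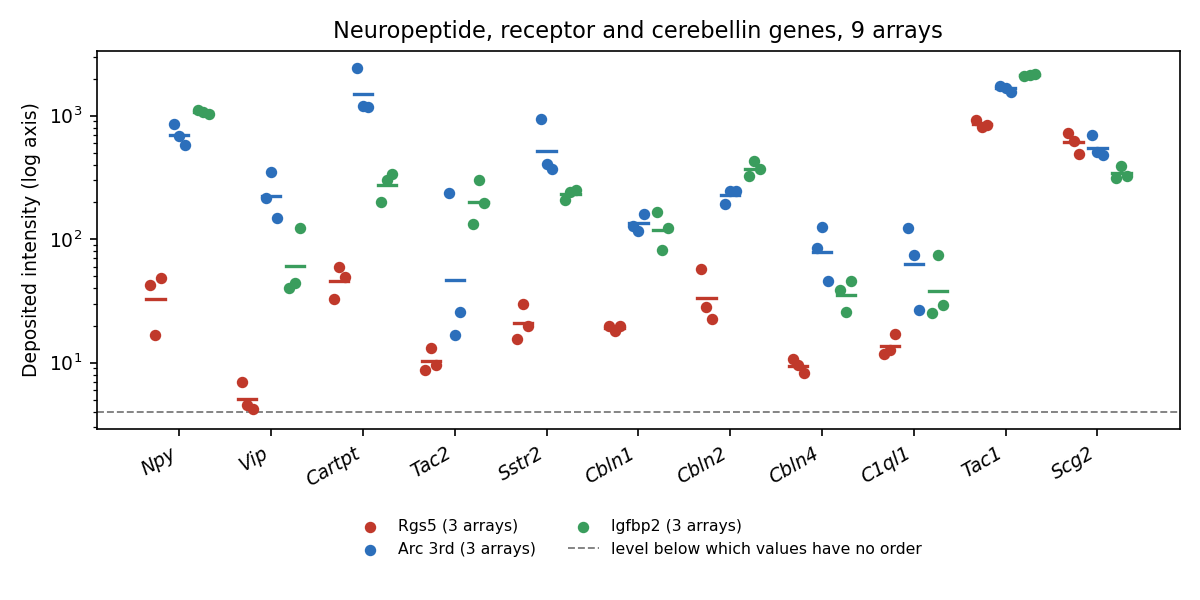
Deposited intensity (log axis) of neuropeptide, receptor and cerebellin genes on each of 9 arrays, with bars at the geometric mean of 3 arrays. Npy, Vip, Cartpt and Sstr2 are lower on all 3 Rgs5-line arrays than on any other array, while Scg2 overlaps; the dashed line is the floor of 3.99.

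Upstream sequences are shown for Vip and Cartpt because both peptide genes are known targets of cyclic AMP signalling and both hold its core motif, TGACG, searched on both strands and put in capitals. They are again the 250 bases before the RefSeq start site on GRCm38.p6. Vip lies on the plus strand at chr10:5638968-5639217 and Cartpt on the minus strand at chr13:99900684-99900933.
Vip: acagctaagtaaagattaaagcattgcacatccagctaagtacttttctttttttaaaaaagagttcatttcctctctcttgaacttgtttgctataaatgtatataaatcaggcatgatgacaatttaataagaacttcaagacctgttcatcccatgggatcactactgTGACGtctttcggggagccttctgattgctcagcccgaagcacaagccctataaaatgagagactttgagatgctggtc
Cartpt: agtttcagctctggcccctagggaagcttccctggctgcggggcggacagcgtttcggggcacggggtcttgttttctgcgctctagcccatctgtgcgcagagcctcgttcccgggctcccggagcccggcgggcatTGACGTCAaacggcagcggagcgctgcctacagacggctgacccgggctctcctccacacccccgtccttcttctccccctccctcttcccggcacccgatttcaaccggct
In Cartpt the match on each strand overlaps the other and makes the full element TGACGTCA. TGACG is in 17.8% of all promoters and 29.7% of those of tested genes, and TGACGTCA in 1.55% and 2.99%. Neither Npy nor Tac2 holds TGACG in this window.

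Within the lists of peptide receptors, glutamate receptors, GABA and glycine receptors, and amine and acetylcholine genes, the genes called were all lower. Their counts stand against 0.777% of all genes called lower. Receptor genes outside these lists were called in both directions, such as Gpr12 and Gcgr higher and Drd5 and Uts2r lower. Sstr2, a somatostatin receptor, was at 15.6, 29.6 and 19.7 in the Rgs5 line, 943, 403 and 373 in Arc 3rd and 209, 240.4 and 248 in Igfbp2, a difference of -4.06 ± 0.55 (SE, adjusted p = 4.6e-07). Npy5r, a receptor of neuropeptide Y, was at 4.28 to 5.58 against 6.15 to 22.6 (-1.15, adjusted p = 0.0015). These were the 2 called of the 13 genes tested from the peptide receptor list. Gria3, an AMPA receptor subunit, was at 10.4, 12.2 and 8.95 against 22 to 44.2 (-1.60), and was the 1 of 14 glutamate receptor genes called. Of 9 GABA and glycine receptor genes tested, 0 were called by limma, and 2 had an unadjusted p below 0.05. Th, the enzyme that starts dopamine synthesis, was at 6.71, 10.1 and 12 against 22.1 to 61.9 (-1.68), the 1 of 7 amine and acetylcholine genes called, and without Rgs5 replicate 1 it did not pass (adjusted p = 0.072).

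Cbln2, Cbln1 and Cbln4 encode cerebellins, secreted C1q-family proteins of synapses, and each was called lower. They were taken from the largest differences and from the neuropeptide list, and no list of the family was tested. Cbln2 was at 57.1, 28.4 and 22.7 in the Rgs5 line against 194 to 431 (-3.13, adjusted p = 1.6e-05). Cbln1 was at 19.8, 18.1 and 19.8 against 82.1 to 167 (-2.72), and Cbln4 at 10.8, 9.65 and 8.21 against 25.5 to 126 (-2.48). C1ql1, a related synaptic protein named after its values were seen, was at 11.8, 12.6 and 17 against 25.2 to 123 (-1.84), and it did not pass with only the 9 arrays in the fit (adjusted p = 0.058). In all 4 genes the Rgs5-line arrays lay below the others.

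The other genes with large negative differences were of mixed function. Ucma, a secreted matrix protein of cartilage, was at 5.40 to 5.94 in the Rgs5 line against 12.7 to 166 (-3.74), and without Arc 3rd replicate 1 it was -4.33. Clmp, a junctional adhesion protein, was at 11, 13.5 and 35.8 against 74.9 to 125 (-2.62), and Atp2b1, a calcium pump of the plasma membrane, at 23.6, 16 and 22.4 against 69.9 to 191 (-2.38). Both were below the other arrays without overlap. Pcbd1 (-2.63), a cofactor-recycling enzyme of tetrahydrobiopterin, Sgcb (-2.56), a sarcoglycan of the dystrophin complex, Emp3 (-2.50), a small membrane protein, and Csrp2 (-2.51), a LIM protein of smooth muscle, passed less firmly. The call for Pcbd1 ended without Rgs5 replicate 3 (adjusted p = 0.12), that for Emp3 without Rgs5 replicate 1 (adjusted p = 0.12), and that for Sgcb without Rgs5 replicate 1 or 3 (adjusted p = 0.23 and 0.1). The call for Csrp2 ended without any 1 of the 3 Rgs5 replicates, Arc 3rd replicate 2 or Igfbp2 replicate 2, with adjusted p from 0.059 to 0.25.

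Among transcription factors of retinal subtypes, 1 of 21 tested was called higher and 2 lower, against 0.614% and 0.777% of all genes. Maf, a leucine zipper factor, was at 12.8, 22 and 18.8 against 7.02 to 9.43 (1.13, adjusted p = 0.00014), and without Rgs5 replicate 2 the difference was 0.96. Nr4a2, a nuclear receptor, was at 4.77, 5.33 and 6.67 in the Rgs5 line, 69.1, 28.5 and 15.3 in Arc 3rd and 4.88 to 5.99 in Igfbp2 (-1.24), so it set the Arc line apart from both others. Its call ended without Arc 3rd replicate 1 (-0.95), without Igfbp2 replicate 3 (adjusted p = 0.054), and without any 1 of the 3 Rgs5 replicates (adjusted p 0.052 to 0.19). Fezf2, a zinc finger factor, was at 5.56 to 10.5 in the Rgs5 line, 9.19 to 12.3 in Arc 3rd and 25 to 34.6 in Igfbp2 (-1.20), and without Rgs5 replicate 3 it did not pass. Values for the broad amacrine factors Tfap2a (-0.83, adjusted p = 0.11) and Tfap2b (-0.70, adjusted p = 0.76) were below the others on all 3 Rgs5-line arrays without passing. The GABA-synthesizing enzymes Gad1 (-0.52) and Gad2 (0.90) did not pass either. Snap25, a protein of vesicle fusion, was at 295, 256 and 197 against 365 to 688, just under the threshold of size, and it passed without Rgs5 replicate 1 (-1.13), Arc 3rd replicate 1 (-1.12) or Igfbp2 replicate 1 (-1.03).

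The counts for signalling, channel and adhesion genes stand against 1.39% of all genes called. Of 13 genes of the RGS family tested, 1 was called, Rgs5 itself. Rgs2, which also shortens Gq signalling and is abundant in vascular smooth muscle, was at 210, 175 and 144 against 56.9 to 94.2, a difference of 1.31 that did not pass (adjusted p = 0.059) but did in 7 of 23 alternatives, among them the fit without Arc 3rd replicate 1 (adjusted p = 0.048) and that with only the 9 arrays (adjusted p = 0.007). Of 29 potassium channel genes tested, 2 were called higher and 1 lower: Kcnj8, Kcnip2 (an auxiliary subunit of Kv4 channels, at 10.1 to 14.9 against 4.86 to 6.42, 1.14), and Kcnab1, a Kv channel beta subunit, lower (-1.36). The call for Kcnab1 ended without Rgs5 replicate 1 or 3, Arc 3rd replicate 2 or 3, or Igfbp2 replicate 1 or 2. Cacng4, an auxiliary subunit of calcium channels and AMPA receptors, was at 66.3, 45.4 and 75.2 against 17.7 to 26 (1.55), the 1 of 14 sodium and calcium channel genes called. Sema6a, a guidance semaphorin, was at 7.67 to 8.38 against 15.2 to 25.8 (-1.24), the 1 of 19 guidance genes called. Pcdh20, a protocadherin, was called higher at 12.1, 26.6 and 9.29 against 4.11 to 8.15 (1.28), the 1 of 32 cell recognition genes, and without Rgs5 replicate 2 it did not pass (0.84, adjusted p = 0.31). Of 13 calcium-binding proteins and 23 immediate early genes tested, 0 were called by limma, and 4 and 3 had an unadjusted p below 0.05.

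The counts for markers of other retinal cells stand against 1.39% of all genes called. Of 12 Müller glia genes, 1 was called, Dkk3, a secreted Wnt modulator, at 156, 150 and 85.9 against 46.5 to 77.7 (1.09). Without Rgs5 replicate 1 or 2 it was 0.93 or 0.96 and did not pass, and without Arc 3rd replicate 1 it fell just under the threshold of size. The summed Müller glia level was 788 to 821 in the Rgs5 line, 822 to 985 in Arc 3rd and 689 to 809 in Igfbp2. Of 5 microglia, 10 bipolar, 4 horizontal, 1 cone, 1 astrocyte and 1 blood gene tested, 0 were called by limma. An unadjusted p below 0.05 was found for 1 bipolar and 1 horizontal gene among them. Ganglion cell genes differed in both directions: 8 of the 9 tested had an unadjusted p below 0.05, with a median difference of 0.55 against -0.02 over all genes, and 1 was called. Sncg, gamma-synuclein, was at 59.8, 51.6 and 29 in the Rgs5 line against 12.1 to 26.2 (1.41, adjusted p = 0.1), and the neurofilaments Nefl (1.67, adjusted p = 0.067) and Nefm (1.26, adjusted p = 0.074) did not pass either. Values of Gap43 (-1.36), Stmn2 (-1.24) and Tubb3 (-1.24), genes of growing and mature axons, were below the others on all 3 Rgs5-line arrays without passing. The gene called was the heavy neurofilament Nefh, lower at 6.41 to 11.8 against 8.40 to 38 with overlapping arrays, and its call ended without Rgs5 replicate 2 or 3 or Arc 3rd replicate 3.

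**Figure D5:**
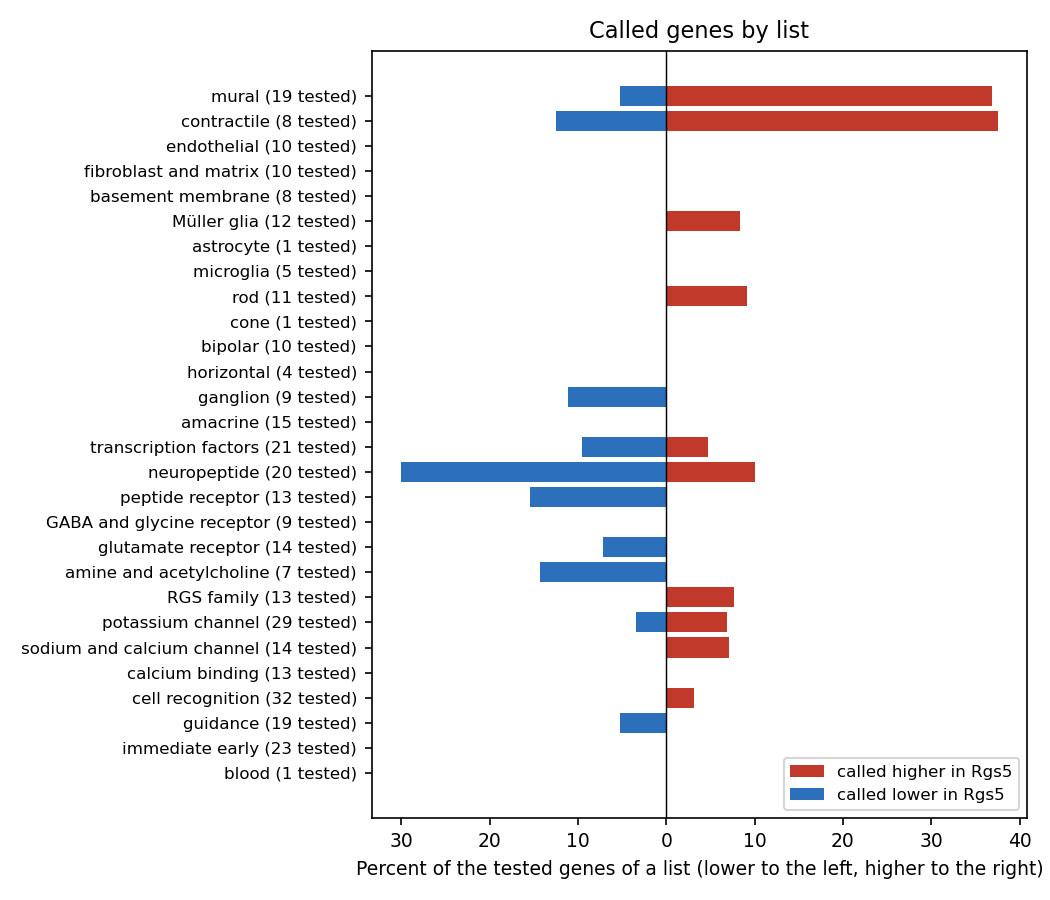
Percent of the tested genes of each list (y axis, with the number tested) that were called higher (red, to the right) or lower (blue, to the left) in the Rgs5 line than in the mean of Arc 3rd and Igfbp2. The mural list has 7 of 19 called higher and the neuropeptide list 6 of 20 called lower, against 0.614% and 0.777% of all genes. Several lists have under 10 genes tested, and the contractile genes are part of the mural list. Genes could enter the test through the Rgs5 line alone, as Acta2 and Vtn did.

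Since the genes called higher were chosen for their level in the Rgs5 line, their rank there is a description. Of the 68, 19 had a higher mean in the Rgs5 line than in any of the 25 other sets, and 39 had their highest or next highest mean there. Over all genes tested, 153 (1.38%) had their highest mean in the Rgs5 line. The choice of the 68 by that level raises their share, so nothing is drawn from the difference. Leaving out the 3 lines compared, the highest of the 23 remaining sets was Grik4 for 15 of the 68 (22.1%), against 2.7% of all genes tested. For Crh it was 12 of the 68 (17.6%), against 12% of all genes tested. Of the 86 genes called lower, the highest of these 23 sets was Arc 1st for 21 (24.4%) and Arc 2nd for 13 (15.1%). Over all genes tested these shares were 1.99% and 1.16%. Both sets carry the same transgene as Arc 3rd, and the 86 were chosen in part for their level in Arc 3rd. That choice raises their shares, so nothing is drawn from this difference either.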

How the data were processed

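The series holds 78 Affymetrix Mouse Gene 1.0 ST arrays in 26 sets of 3. Per the submitters' processing notes, the authors used RMA and oligo in R 2.11.1 with build mm9, with no settings given in the sources used here. The deposited values are intensity on a linear scale, and every array holds the same sorted values, so log2 was taken before testing. Depth does not apply to arrays, and their number limits the precision.

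Of 22347 probe sets, 19446 had 1 gene symbol in the platform annotation, 735 several and 2166 were not listed. The probe set with the highest mean stood for each of 19301 genes. A gene was tested if 1 of the 3 sets had a mean above the median of all values, 9.01. limma 3.58.1 in R 4.3.3 was fitted to all 78 arrays with 1 mean per set and a trend in the prior variance, with Benjamini-Hochberg adjustment over 11068 genes, and was tested on simulated data. Genes with an adjusted p below 0.05 whose means were 1 log2 unit or more apart were called. The low values of 70 of the 78 arrays end in a run of 10 or more in probe order; the highest value in such a run, 3.99, was taken as the floor. Where the fit with values raised to it differed by more than 1.5 times, the floored difference is given as a lower bound.

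Genes named are, in each direction, the 15 largest called differences with separate arrays, the 3 drivers, the markers Acta2 and Penk, members of 29 gene lists and the 5 nearest patterns. The comparison, lists and rule were chosen with earlier results of these data known. Promoter sequences are from RefSeq (GRCm38.p6); 8882 of the tested genes had an entry.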

Additional observations from a re-analysis of the deposited data

How the results depend on the processing

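For the Rgs5 line against the mean of Arc 3rd and Igfbp2, 154 genes were called in the reported fit, 84 with a pseudocount of 16, 234 with only the 9 arrays in the fit and 289 with array weights, whose estimation stopped before it converged. Leaving out 1 array gave 116 to 167, and without Rgs5 replicate 1 the share called higher was 56% in place of 44.2%. Against Arc 3rd, 111 became 172 with only the 9 arrays and 285 with array weights, with 79 to 118 on leaving out 1 array. Against Igfbp2, 151 became 100 with the pseudocount, 237 with only the 9 arrays and 383 with array weights, with 109 to 148 on leaving out 1 array. Arc 3rd against Igfbp2 had 34, 114 with array weights, and 20 to 38 on leaving out 1 array, the lowest without Arc 3rd replicate 1; its alternatives were chosen after seeing the data. The causes were not tested. Residuals of arrays with the same replicate number correlated between -0.134 and 0.0399, and those with different numbers between -0.0736 and 0.0890. The labels do not say whether a number pairs arrays, and these correlations cannot decide it. With the replicate block the counts were 189, 117, 186 and 15. Of 73 genes refitted under the alternatives, 57 were called, and 0 of these changed direction; among the others Myh11 did, at -0.0066 without Rgs5 replicate 3. Other genes named were not refitted. Besides the losses given with each gene, calls ended for Gm10785, Gngt1, Crh, C1ql1, Nr4a2 and Nefh with only the 9 arrays, and for Gm10785, Sgcb, Tpm1, Npy5r, Maf, Nr4a2 and Kcnab1 with the mean of the 3 Arc sets. The calls for Acta2, Higd1b, Mgp, Myl9, Gja4, Kcnj8, Penk, Npy, Vip, Sstr2, Cartpt, Cbln1, Cbln2 and Cbln4 held in all 23 alternatives run for each. Low intensity limits what can be said of dim genes: 199 tested genes, 18 of them called, had at least 1 of the 9 arrays at or below the floor.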
